A study of Mus musculus with 2 samples.

Results

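The genes described here encode the intermediate filament proteins desmin (Des), vimentin (Vim), nestin (Nes), synemin (Synm) and lamin A/C (Lmna), the actin crosslinker filamin C (Flnc), and the tubulins Tubb6, Tubb2a, Tubb2b and Tuba1a. They were chosen by name from the deposited gene list, and all 10 were found among its 19465 genes. Expression was measured with the Visium CytAssist assay, in which gene-specific probes hybridized to formalin-fixed, paraffin-embedded tissue are captured on barcoded spots, and each captured molecule is counted once by its unique molecular identifier (UMI). The comparison asks what a human TOP2B transgene, switched on in cardiomyocytes, does to the heart in the absence of an anthracycline.

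One section, cut at 5 μm, came from the heart of a control α-MHC-MerCreMer+/− mouse. The other came from the heart of an α-MHC-MerCreMer+/− mouse that also carried hTOP2B LSL/−, called TOP2B transgenic here. Both mice carried the tamoxifen-activated Cre, which the α-MHC promoter drives in cardiomyocytes, and both were given tamoxifen once at 80 mg/kg. In the transgenic mouse Cre removes a loxP-flanked stop (LSL) that blocks a CAG-driven human TOP2B cDNA at Rosa26, so the switch is set in cardiomyocytes while every cell type of the wall is read. Mice of this single-dose model were 6 weeks old at tamoxifen, and the labels give neither an age nor an interval after tamoxifen for these 2 sections. Mouse Top2b was at 106 CPM (UMIs per 1000000 UMIs of the section) in the control and at 102 CPM in the transgenic section, so it was not higher, and whether its probes read the human cDNA was not tested. With 1 mouse per genotype no test was run, no difference has a replicate check, and genotype, animal, section plane and slide cannot be told apart.

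Intermediate filaments are flexible cables that differ by cell type. Desmin is the muscle form and ties Z-discs to one another, to desmosomes, to mitochondria and to the nucleus, whereas vimentin marks fibroblasts, endothelial cells and other mesenchymal cells, and the lamins line the inside of the nuclear envelope. Microtubules are built from dimers of α- and β-tubulin, each encoded by several genes called isotypes, and in cardiomyocytes they run along and between myofibrils, guide transport and resist shortening.

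The control section held 14376300 UMIs over 1256 spots (median 11336 a spot), and the transgenic section held 12953389 UMIs over 924 spots (median 14531). Levels are given in CPM, compared as the log2 ratio of transgenic over control. Intervals are 95% intervals, exact Poisson for levels, exact conditional binomial for ratios and Clopper–Pearson for shares, and they cover counting error only. Over the 15236 genes with at least 20 UMIs the median log2 ratio was 0.20, and every ratio fell by 0.16 with TMM factors. Cardiomyocyte markers made up 7.31% of control and 5.33% of transgenic UMIs, with 9 of 10 listed genes analysed and none at 0, so cardiac muscle was present in both sections. The lower sum rested mainly on Atp2a2, which went from 19619 to 6228 CPM (log2 ratio -1.66), on Pln (-1.03) and on Myl3 (-1.07). Of the 9 genes 2 were higher, Tnnt2 (0.17) and Mybpc3 (0.13), and 7 were lower, with Tpm1 at -0.0023. The share of these same markers ranked the spots wherever cardiomyocyte markers are used below. Fibroblast markers went from 0.179% to 0.454%, with 8 of 8 genes higher, or 6 of 8 with TMM factors, and erythroid markers from 0.214% to 2.04%, with 4 of 4 analysed genes higher. Col1a1 led the fibroblast list with a log2 ratio of 2.68, and Tcf21 and Col3a1 both stood at 2.01. Pdgfra was at 1.16, Dcn at 1.05 and Lum at 0.42. Gsn and Dpt, at 0.00093 and 0.06, were below the median of all genes. In 54 transgenic spots and 8 control spots erythroid genes made up at least 10% of the UMIs, with a median of 76.6% in the transgenic ones. These transgenic spots held 2.28% of that section's UMIs, 47 of them formed 1 connected group, and values without such spots are given beside the spatial results. A spot covers several cells, so fewer cells of a type and less RNA per cell cannot be told apart in any value that follows.

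Of the 10 genes, 9 were higher in the transgenic section, where 63.2% of all 15236 genes were. Des, Vim, Flnc, Lmna, Tubb2a, Tubb2b and Tuba1a (7 of 10) were at least 2-fold higher, where 13.7% of all genes were, and 0 of 10 were at least 2-fold lower, where 5.61% of all genes were. The median of the 10 log2 ratios was 1.37, and together the genes went from 0.412% to 1.19% of the UMIs of a section. With TMM factors 9 of the 10 were again higher, where 52.4% of all genes were. The list was drawn up with results of these sections known, so these counts describe it and are not independent evidence. Without the spots rich in erythroid genes the counts were again 9 higher and 7 at least 2-fold.

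**Figure D1:**
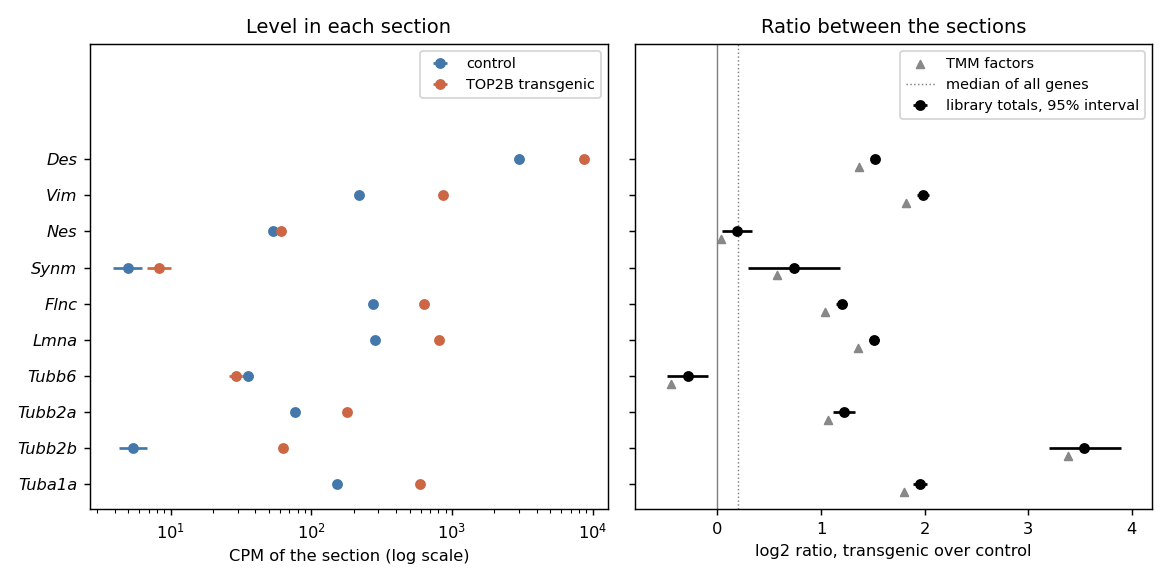
Left, CPM of each gene in the control (blue) and TOP2B transgenic (orange) section on a log scale, with exact Poisson 95% intervals. Right, log2 ratio of transgenic over control from library totals with its 95% interval (black) and with TMM factors (grey triangles), beside 0 and the median of all genes at 0.20 (dotted). Tubb2b stands farthest right at 3.54, Nes is near 0 and Tubb6 lies below 0.

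Des, the muscle intermediate filament, was at 3017 CPM (2989 to 3046) in the control section and at 8661 CPM (8610 to 8711) in the transgenic one. The log2 ratio was 1.52 (1.51 to 1.54), a 2.87-fold difference, higher than that of 93.9% of the genes compared. When each section was cut into 4 quadrants at the centre of its tissue, Des was at 2958 to 3063 CPM in the control quadrants and at 8071 to 9310 CPM in the transgenic ones, so the levels did not overlap. Quadrants of the sections lay apart for 8 of the 10 genes, where they did for 43.5% of all genes, and for the same 8 without the erythroid-rich spots, where they did for 43.7%. Over spots, the median was 28.6 Des UMIs per 10000 in the control and 82.0 in the transgenic section, and the 10th percentile of the transgenic spots, 49.5, was above the 90th percentile of the control spots, 40.6. Without the erythroid-rich spots these percentiles were 55.5 and 40.7. Desmin was thus higher across the transgenic section and not in a few spots alone: the 10% of spots with the most Des held 18.5% of its UMIs in the control and 19.8% in the transgenic section, or 18.4% and 18.9% without the erythroid-rich spots.

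Vim, the intermediate filament of fibroblasts and other mesenchymal cells, was at 219 CPM (211 to 226) in the control section and at 863 CPM (847 to 879) in the transgenic one. Its log2 ratio was 1.98 (1.92 to 2.04). The 4 quadrants spanned 189 to 235 CPM in the control section and 655 to 1007 CPM in the transgenic section, with no overlap. Of the UMIs of Des and Vim together, Vim made up 6.75% (6.53 to 6.99) in the control and 9.06% (8.90 to 9.22) in the transgenic section, so vimentin was higher by more than desmin was. Fibroblast markers were also higher by a log2 ratio of 1.34 in sum and macrophage markers by 0.98. Endothelial markers were level only in sum, at 0.0046, with 5 of 8 genes higher, or 3 with TMM factors. Their ratios ran from 1.26 for Cldn5 to -0.92 for Kdr. The part of these cell types in the Vim difference was not tested. In the 50% of each section's spots richest in cardiomyocyte markers the Vim ratio was 1.75, and the gap in its share of the Des and Vim UMIs narrowed from 2.30 to 0.94 percentage points.

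Nes encodes nestin, a filament protein of progenitor, endothelial and regenerating muscle cells that assembles with vimentin or desmin. It was at 53.6 CPM (49.8 to 57.5) in the control section and at 61.0 CPM (56.8 to 65.4) in the transgenic one. The log2 ratio of 0.19 (0.04 to 0.33) was close to the median of all genes and became 0.03 with TMM factors and -0.18 in the spots richest in cardiomyocyte markers. The quadrants overlapped, at 48.6 to 58.3 CPM against 53.3 to 71.8 CPM, so no direction is drawn for Nes. Synm encodes synemin, which joins desmin filaments to the costamere and the Z-disc. It was counted only 72 times in the control and 108 times in the transgenic section, at 5.01 CPM (3.92 to 6.31) and 8.34 CPM (6.84 to 10.1). Its quadrants also overlapped, at 2.66 to 5.86 CPM against 5.49 to 10.7 CPM.

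Flnc encodes filamin C, the muscle filamin that crosslinks actin at the Z-disc and the intercalated disc. It was at 273 CPM (265 to 282) in the control and at 628 CPM (614 to 642) in the transgenic section, and the log2 ratio was 1.20 (1.14 to 1.26). The quadrants ran from 263 to 282 CPM in the control and from 554 to 720 CPM in the transgenic section and did not overlap. Flna, which encodes filamin A, had a log2 ratio of 0.91.

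Lmna, whose products lamin A and lamin C form the nuclear lamina, was at 284 CPM (275 to 293) in the control and at 809 CPM (794 to 825) in the transgenic section. The log2 ratio was 1.51 (1.46 to 1.56), nearly that of Des. Control quadrants spanned 254 to 304 CPM and transgenic quadrants 681 to 918 CPM, again with no overlap. Lmnb1, the B-type lamin that was analysed, was at 7.37 and 13.2 CPM with a log2 ratio of 0.84, and Lmna made up 97.5% of the UMIs of both lamins in the control and 98.4% in the transgenic section.

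In UMIs of the genes analysed, the tubulins differed between the sections mainly in which isotype was counted, and much less in the summed count. Each gene is read by its own probes, whose efficiency was not tested, so sums and shares are of UMIs and not of transcripts. Tuba1b and Tuba1c were counted only 68 and 26 times in the control and 37 and 10 times in the transgenic section. Summed over the α-tubulin genes analysed, the level was 748 CPM in the control section against 676 CPM in the other, with a log2 ratio of -0.15. Tuba1a, a major α-tubulin of developing tissue and neurons, was at 152 CPM (146 to 159) in the control and at 591 CPM (577 to 604) in the transgenic section. Its log2 ratio was 1.96 (1.89 to 2.02), and its share of the α-tubulin UMIs was 20.4% (19.6 to 21.1) in the control and 87.3% (86.6 to 88.0) in the transgenic section. Over quadrants that share lay between 18.9% and 22.4% in the control and between 83.9% and 90.1% in the transgenic section. The isotypes that led in the control were lower: Tuba8, an α-tubulin found mainly in heart, skeletal muscle and testis, went from 444 to 52.2 CPM with a log2 ratio of -3.09. Tuba4a, an α-tubulin whose gene already encodes the form without a terminal tyrosine, went from 145 to 29.6 CPM with a log2 ratio of -2.29.

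The β-tubulin genes analysed summed to 438 CPM in the control section against 492 CPM in the transgenic one, with a log2 ratio of 0.17. Tubb2a, a β-tubulin abundant in neurons, was at 76.8 CPM (72.3 to 81.5) in the control and at 179 CPM (172 to 186) in the transgenic section, with a log2 ratio of 1.22 (1.12 to 1.33). Its near-identical neighbour Tubb2b was at 5.43 CPM (4.29 to 6.77) in the control and at 63.1 CPM (58.8 to 67.6) in the transgenic section. That difference, 11.6-fold with a log2 ratio of 3.54 (3.20 to 3.89), was the largest of the 10 genes and above that of 99.4% of all genes compared. Its quadrants spanned 4.17 to 6.39 CPM in the control section against 49.5 to 77.3 CPM in the transgenic one. Of the β-tubulin UMIs, Tubb2a made up 17.5% in the control and 36.4% in the transgenic section, and Tubb2b made up 1.24% and 12.8%. The broadly expressed Tubb4b went the other way, from 72.2% to 33.3%, with a log2 ratio of -0.94. Tubb3, the β-tubulin used as a neuronal marker, was at 0.445% in the control and 10.5% in the transgenic section with a log2 ratio of 4.73.

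Tubb6, a widely expressed β-tubulin, was the 1 gene of the 10 that was lower in the transgenic section. It was at 35.4 CPM (32.4 to 38.6) in the control and at 29.0 CPM (26.2 to 32.1) in the transgenic section, and the log2 ratio was -0.29 (-0.48 to -0.09). Its quadrants all but met, at 32.5 to 40.7 CPM against 24.7 to 32.5 CPM. Its share of the β-tubulin UMIs was 8.09% in the control and 5.89% in the transgenic section. The tubulin genes with similar coding sequence (Tubb2a with Tubb2b, Tuba1a with Tuba1b and Tuba1c) could share probe signal, which was not tested, and the isotypes Tubb4a and Tubb5 were not analysed here, so the shares are of the genes analysed.

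**Figure D2:**
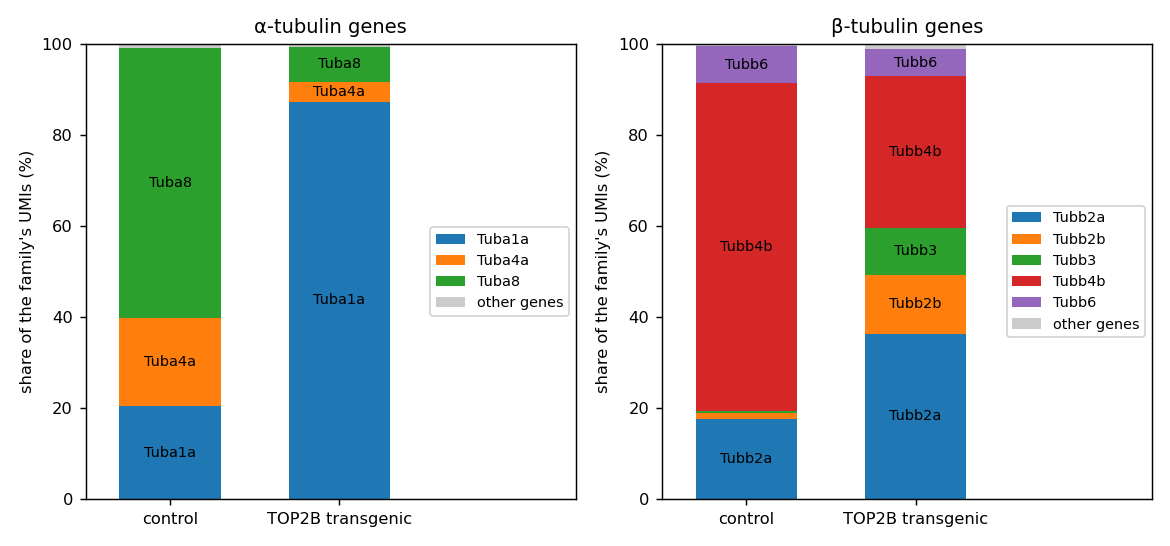
Share of each gene in the UMIs of the α-tubulin genes (left) and of the β-tubulin genes (right) in the control and the TOP2B transgenic section, as stacked bars that sum to 100%. The share of Tuba1a goes from 20.4% to 87.3%, and those of Tuba8 and Tuba4a are smaller in the transgenic section. The shares of Tubb2a, Tubb2b and Tubb3 are larger there, and that of Tubb4b goes from 72.2% to 33.3%.

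The DNA just upstream of the start sites is shown for the 4 genes that open these groups and have an entry, Des, Vim, Tubb2a and Tuba1a, to set side by side what their proximal promoters hold. Each run is the 100 bases before the RefSeq start (GRCm38.p6), 5′ to 3′ on the strand of the gene, at chr1:75360192-75360291 (+), chr2:13574211-13574310 (+), chr13:34078009-34078108 (−) and chr15:98953502-98953601 (−). Capitals mark the E-box CAGCTG, the GC box GGGCGG and the TATA box (TATAAA or TATATA), searched on both strands, so a GC box on the other strand reads CCGCCC.
Des: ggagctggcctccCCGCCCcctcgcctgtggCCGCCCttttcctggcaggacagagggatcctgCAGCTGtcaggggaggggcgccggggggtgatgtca
Vim: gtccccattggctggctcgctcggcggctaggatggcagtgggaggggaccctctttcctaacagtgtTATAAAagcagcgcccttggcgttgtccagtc
Tubb2a: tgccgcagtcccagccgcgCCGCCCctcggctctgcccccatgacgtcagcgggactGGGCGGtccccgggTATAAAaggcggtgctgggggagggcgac
Tuba1a: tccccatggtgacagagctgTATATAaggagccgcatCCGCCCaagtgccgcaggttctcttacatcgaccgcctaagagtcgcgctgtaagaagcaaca

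Of the 10 genes, 8 had 10 promoters in RefSeq between them, and the 250 bases before each start were searched. The E-box CAGCTG was in 1 of the 10, that of Des, and in 13.0% of all 32851 promoters. A TATA box, matched by its letters anywhere in the window, was in 3 of 10, those of Vim, Tubb2a and Tuba1a, and in 15.6% of all promoters. The match began 32 bases before the start in Vim and 29 in Tubb2a, but 80 bases before it in Tuba1a. A GC box was in 7 of 10 and in 32.7% of all. The 2 promoters of Flnc among these 7 overlap and hold the same GC boxes, so 6 of the 8 genes had one. MCAT (CATTCC) was in 1 of 10, a promoter of Flnc, and in 12.6% of all promoters. The CArG box and the MEF2 site, both known from muscle genes, were in 0 of 10 and in 1.47% and 2.92% of all promoters. Des and Vim, which were both higher, therefore shared none of these motifs in this window, which is a description of the sequence and says nothing of which factor acts there.

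Counted by spots, 8 of the 10 genes were found in a larger share of transgenic than of control spots, where 76.4% of all genes were. With each spot thinned to 8134 UMIs the count was 8, where 64.2% of all genes were, and without the erythroid-rich spots it was 10, where 80.5% were, so the counts stood close to those of all genes and the sizes of the differences are given. A Tubb2b UMI was found in 6.05% of control spots (4.80 to 7.52) and in 55.7% of transgenic spots (52.5 to 59.0). After thinning, with 140 control and 78 transgenic spots too shallow to enter, the shares were 4.40% and 39.7%. Tubb2a was found in 57.4% and 86.4% of spots (46.2% and 76.4% thinned) and Tuba1a in 79.6% and 96.2% (69.8% and 98.6% thinned). Vim was found in 87.8% and 96.5% of spots, and Flnc and Lmna in 92.4% and 93.0% of control and 96.3% of transgenic spots. Des was in nearly every spot of both sections, at 99.6% and 98.8%, or 99.8% and 99.9% without the erythroid-rich spots. Nes was in 45.4% and 51.1%, but in 35.3% and 37.1% at equal depth, and Synm was in 5.57% and 10.9%. Tubb6 was in 32.6% and 32.3% of spots, in 24.5% and 20.4% at equal depth, and in 32.8% and 33.5% without the erythroid-rich spots, so the direction turned with the spots used. As a background, 12 genes not made in heart, such as insulin and growth hormone, were found in 0.318% to 1.43% of control spots and 0.216% to 2.06% of transgenic spots, with medians of 11336 and 14531 UMIs per spot, below all 10 genes.

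**Figure D3:**
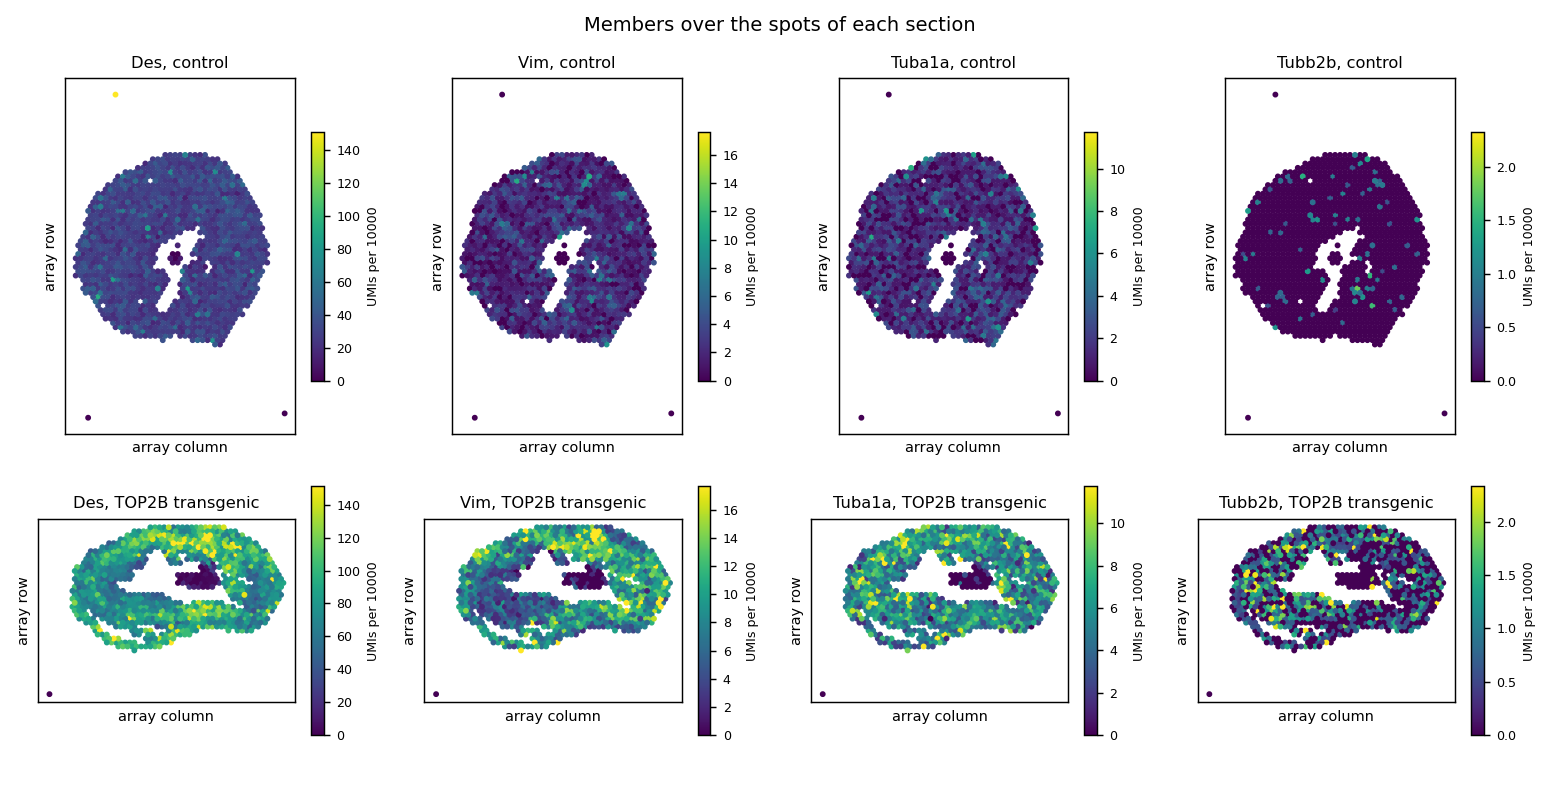
UMIs per 10000 in each spot for Des, Vim, Tuba1a and Tubb2b, at the spots' array rows and columns, in the control section (top) and the TOP2B transgenic section (bottom), with 1 colour scale per gene that ends at the 99th percentile of both sections. All 4 genes are brighter over most of the transgenic section, and the connected group of 47 dark spots is rich in erythroid genes.

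Neighbouring spots resembled each other more in the transgenic section for most of these genes. Moran's I, deposited for each gene, is a score near 0 where neighbouring spots are unrelated and higher where they resemble each other, and it was higher in the transgenic section for 9 of the 10 genes, where it was for 74.3% of all genes. It was 0.101 in the control and 0.628 in the transgenic section for Des, 0.0793 and 0.511 for Vim, and 0.0205 and 0.491 for Lmna. It stayed low in both sections for Synm, at 0.0137 and 0.0127, and for Tubb6, at -0.00447 and 0.0218. The median over genes with at least 200 UMIs was itself 0.00420 in the control and 0.0354 in the transgenic section. The erythroid-rich spots carried part of this: recomputed on log2(1 + UMIs per 10000), the transgenic Moran's I of Des went from 0.744 with all spots to 0.408 without them, that of Vim from 0.589 to 0.469, and that of Tuba1a from 0.426 to 0.119. The control values without such spots were 0.0284, 0.120 and 0.0566, and the transgenic value was then the higher one for all 10 genes, where it was for 59.0% of all genes. For Tubb2b, at 0.0380 and 0.0414, and for Tubb6, at -0.0105 and 0.00872, both values were close. A higher Moran's I did not always go with more UMIs in few spots. The 10% of spots with the most Vim held 27.2% of its UMIs in the control and 22.2% in the transgenic section. For Tuba1a these shares were 27.7% and 21.1%, whereas for Des, Nes and Tubb6 the transgenic share was slightly the larger one. Without the erythroid-rich spots the direction turned for Nes, at 38.1% in the control and 37.8% in the transgenic section. It stayed for Des and for Tubb6, at 44.1% and 44.7%. The share of all genes that behave either way was not computed. Both measures move with the number of UMIs counted, and the part of that number was not tested.

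The covariation of the genes over spots depended on those spots too. Among the 6 genes with at least 1000 UMIs in both sections (Des, Vim, Flnc, Lmna, Tuba1a and Tubb2a), Pearson's r over 1256 control spots was between 0.00813 and 0.119 for the 15 pairs, with a median of 0.0506. Over 923 transgenic spots it was between 0.166 and 0.664, with a median of 0.454. Over the 869 transgenic spots left without the erythroid-rich ones the median was 0.145, and 12 of 15 pairs had a higher r than over the control spots left. The same share over pairs of other genes was not computed, so the higher r is not read as particular to these genes. The pairs that kept the highest values were Des with Flnc at 0.37, Vim with Lmna at 0.36, Des with Vim at 0.32 and Des with Lmna at 0.30, and the lowest was Vim with Tubb2a at -0.02. Spots share a library and differ in depth, so these values are descriptions: Des correlated at 0.42 with the log2 UMIs of those 869 spots and at 0.30 in the control.

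**Figure D4:**
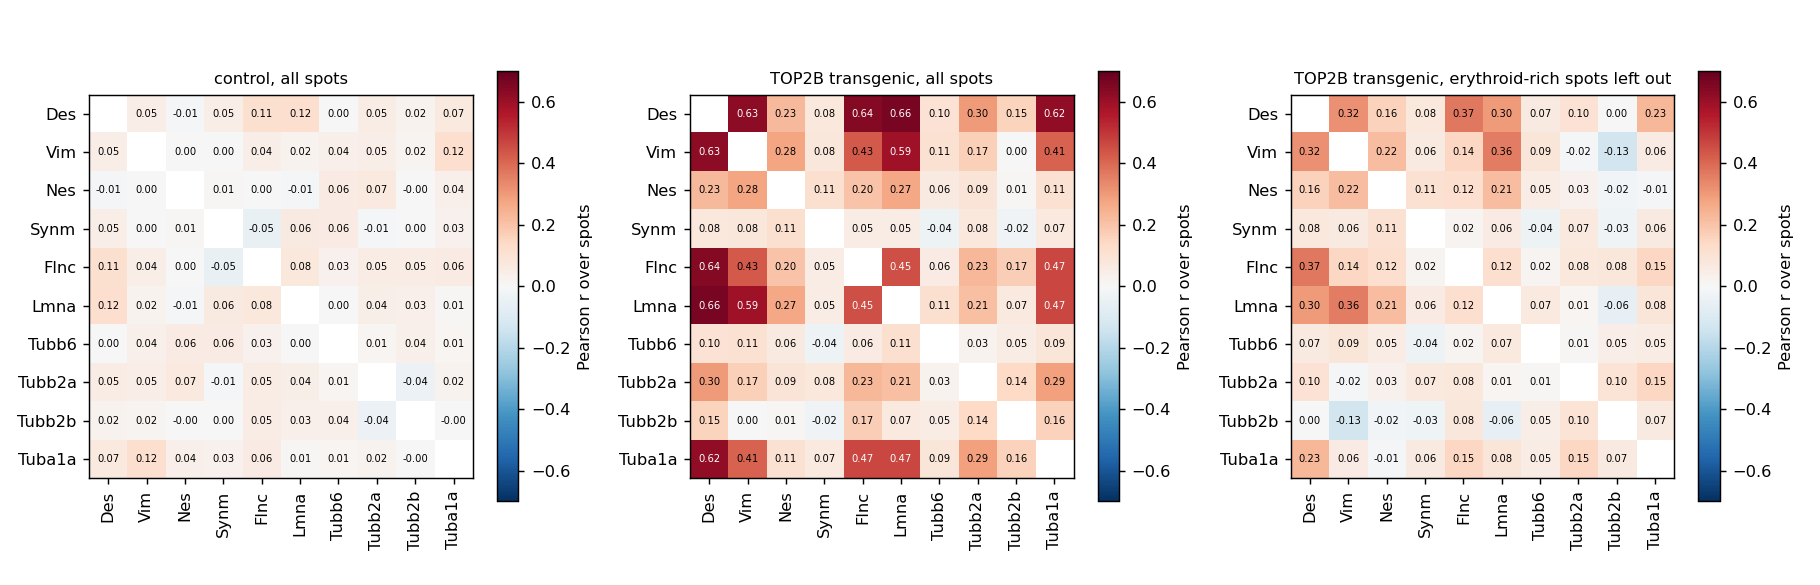
Pearson's r over spots between the 10 genes, on log2(1 + UMIs per 10000), in the control section, in the TOP2B transgenic section and in the transgenic section without spots of at least 10% erythroid UMIs. Values near 0 fill the control panel, the middle panel reaches 0.66 for Des with Lmna, and in the last panel the highest value is 0.37, for Des with Flnc.

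Inside the transgenic section the genes divided by where cardiomyocyte markers were high or low. The 869 spots were ranked by their share of cardiomyocyte marker UMIs and split in terciles of 289 or 290. Vim was at 1146 CPM (1115 to 1179) in the lower tercile and at 610 CPM (587 to 634) in the upper tercile. Lmna went from 988 to 685 CPM and Nes from 77.0 to 43.8 CPM in the same order, so these genes were higher where cardiomyocyte markers were a smaller share. Tubb2b went the other way, from 50.0 CPM (43.5 to 57.1) to 77.9 CPM (69.6 to 86.8). So did Tubb2a, from 164 to 203 CPM, Flnc, from 599 to 669 CPM, and Tuba1a, from 568 to 626 CPM. Tubb6 was at 34.5 CPM (29.2 to 40.5) and 24.4 CPM (19.9 to 29.7). Its log2 ratio of upper over lower tercile was -0.50, beside -0.53 for Lmna. The intervals of Tubb6 overlapped narrowly and no interval of that ratio was computed, so no order is drawn for it. Des was nearly level, at 8875 and 8628 CPM. Fibroblast markers summed to 6229 CPM in the lower and 2851 CPM in the upper tercile. Macrophage markers were at 542 and 350 CPM and endothelial markers at 1669 and 1940 CPM. Over the same 869 spots Vim correlated at 0.45 with Hspb1, at 0.44 with Nppa and at -0.21 with Myh7. For Lmna these values were 0.41, 0.35 and -0.14. The part of these cell types in the Vim and Lmna values was not tested, nor was that of the state of the cardiomyocytes. The isotypes thus did not share 1 place: Tubb3, higher by a larger ratio than Tubb2b between the sections, was at 71.0 CPM in the lower tercile and at 29.2 CPM in the upper tercile.

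In the control section the terciles differed less in cardiomyocyte markers themselves, at 67063 and 79333 CPM in the lower and upper tercile against 44478 and 63470 CPM in the transgenic section, and the values are set side by side only. Vim was at 249 and 192 CPM in the lower and upper control tercile, Lmna at 285 and 286 CPM, and Tubb2a at 79.8 and 75.0 CPM. Tubb2b was at 4.41 and 6.15 CPM, from 78 UMIs in all. The order of the terciles was the opposite of the transgenic one for Tuba1a, at 166 CPM (155 to 179) and 144 CPM (133 to 154). Nes was at 48.0 CPM (41.9 to 54.9) and 56.1 CPM (49.8 to 63.1), and Flnc at 278 CPM (263 to 293) and 272 CPM (258 to 287). The control intervals of Nes, Flnc, Tubb2a and Lmna overlapped between the terciles, so no order is drawn for them in the control.

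**Figure D5:**
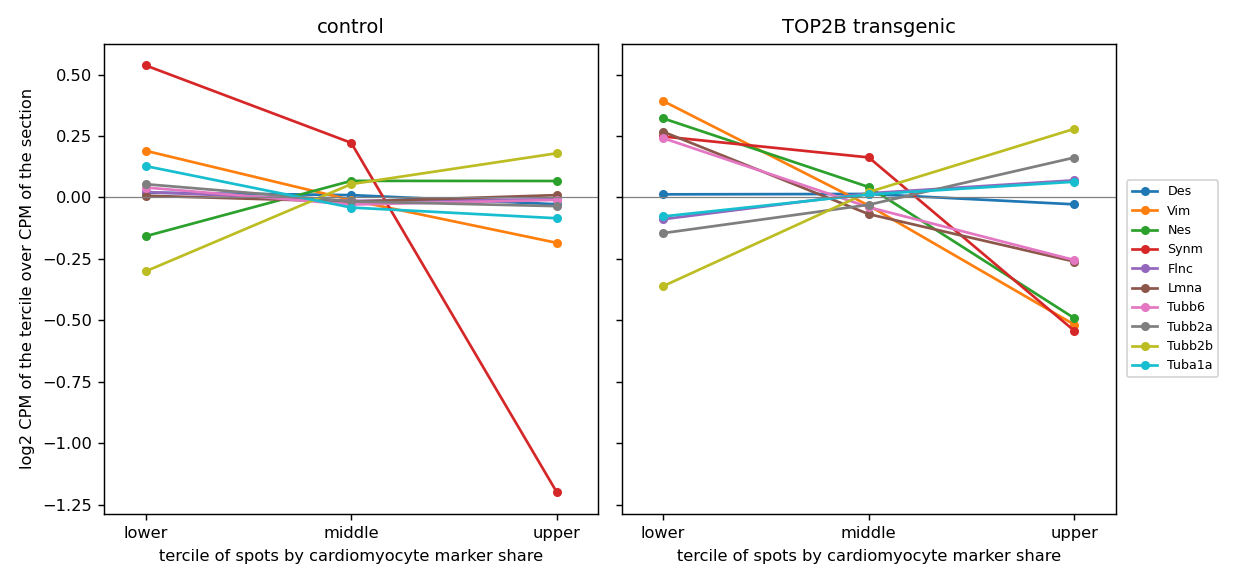
log2 of the CPM in each tercile of spots over the CPM of all these spots, for the 10 genes, with spots ranked by their share of cardiomyocyte marker UMIs and spots of at least 10% erythroid UMIs left out, in the control (left) and the TOP2B transgenic section (right). In the transgenic section Vim, Nes and Lmna are lower in the upper than in the lower tercile and Tubb2b and Tubb2a are higher. The intervals of Tubb6 overlap between these terciles, and the steep control line of Synm rests on 72 UMIs.

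Other genes with a like pattern were sought among genes with at least 1000 UMIs, by Pearson's r over the 869 transgenic spots. The genes nearest to Des were Hspb1 at 0.57, Acta1 at 0.53, Postn at 0.49 and Hspb7 at 0.47, and over 1248 control spots they were Tnnt2 at 0.43 and Myh6 at 0.39. Those nearest to Vim in the transgenic section were Igfbp7 at 0.65, Bgn and Col1a2 at 0.63 and Col1a1 at 0.61, and the summed fibroblast markers stood at 0.63 with Vim there and at 0.26 in the control. Lmna was nearest to Igfbp7 at 0.45 and Mgp at 0.43, and Flnc was nearest to Des itself. Tuba1a was nearest to Myl1 at 0.24, and Tubb2a to Tsc22d1 at 0.17, from sparse counts. With all 923 transgenic spots the leading partners of Des were Tpm1 at 0.84, Hspb7 at 0.83 and Hspb1 at 0.82, against the 0.47 and 0.57 of Hspb7 and Hspb1 above.

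The lists of related genes that follow are read against the 63.2% of all genes that were higher, or 52.4% with TMM factors. The partners of desmin stood near that share. Of 11 genes for its linkers and chaperones, 6 were higher and 5 lower, with a median log2 ratio of 0.22, close to that of all genes. Hspb1, a small heat shock protein that binds desmin and actin filaments, was highest, at 783 and 2544 CPM with a log2 ratio of 1.70. Ldb3, the Z-disc protein cypher, was lowest, at 1167 and 580 CPM with -1.01. Desmoplakin (Dsp), which anchors desmin at desmosomes, had a ratio of 0.96 and plectin (Plec), which crosslinks it, 0.71, whereas the desmin chaperone αB-crystallin (Cryab) had -0.55; these 3 were chosen after their values were seen.

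Of 10 other intermediate filament genes with at least 20 UMIs, 7 were higher (6 with TMM factors) and 3 lower with a median of 1.02. At least 2-fold higher were 5 of the 10, where 13.7% of all genes were. Only Lmnb1 at 0.84 and syncoilin (Sync), a muscle filament protein, at -0.75 had at least 200 UMIs. The median and the 2-fold count of this list therefore rest mostly on sparsely counted genes. The 8 genes for filamins and their partners had 5 higher and a median of 0.37, from myotilin (Myot), a Z-disc filamin partner, at 2.27 to δ-sarcoglycan (Sgcd) at -1.15. The 11 partners of the lamins in the nuclear envelope stayed near level, with 7 higher (5 with TMM factors), 0 of 11 past 2-fold in either direction and a median of 0.03, from Tmpo (0.57) to Banf1 (-0.45). None of these 11 genes had a ratio as high as that of Lmna.

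On the microtubule side, 3 of 10 other tubulins were higher, with a median of -0.60. Only 4 of these 10, Tubb3, Tubb4b, Tuba4a and Tuba8, had at least 200 UMIs, and the median fell among the sparsely counted others. Of 16 genes that modify or fold tubulin, 12 were higher with a median of 0.44, or 11 with TMM factors. Hdac6, which removes acetyl groups from α-tubulin, was highest, at 23.2 and 63.2 CPM with a log2 ratio of 1.45, and Agtpbp1, which trims glutamates from tubulin tails, was lowest, at 167 and 57.7 CPM with -1.53. Of 20 genes that bind or remodel microtubules, 16 were higher with a median of 0.56, or 14 with TMM factors. Map1a, a microtubule-associated protein of neurons, was highest, at 4.80 and 46.8 CPM with 3.29, and Mapt, which encodes tau, was lowest, at 70.7 and 23.3 CPM with -1.60. Markers of Schwann and neuronal cells summed to 0.00248% of control and 0.0275% of transgenic UMIs, with 4 of 6 counted genes higher, and their part in the differences of Tubb3 and Map1a was not tested.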

How the data were processed

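The authors processed the reads of both sections with Space Ranger 2.0.0, per the file headers, and the submitters' processing notes name the genome builds GRCm39 and mm39. The values used are raw counts of UMIs as the authors deposited them, for each gene in each spot over tissue. Moran's I is a score that the authors deposited per gene, used as given. The files hold no coordinates, and promoter sequences are those of RefSeq for GRCm38.p6, another build.

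Counts were summed over the spots of a section and expressed as CPM, because spots of 1 section are not replicates, and no test was run. Genes with at least 20 UMIs over both sections were compared. Spots with 6 neighbors over tissue were called interior. For correlations and the recomputed Moran's I, log2(1 + UMIs per 10000) was used, and the transgenic spot without a UMI was left out. The alternatives were TMM factors (edgeR 4.0.16), DESeq2 1.42.0 size factors, totals without the 50 most abundant genes, the mean over spots, interior spots, spots with at least 1000 UMIs, the 50% of spots richest in cardiomyocyte markers, 1 CPM added, members with at least 200 UMIs, thinned spots and Spearman's rho. Leaving out spots of at least 10% erythroid UMIs, and keeping the 50% poorest in them, were added after seeing the data, as were the TATA box and the GC box. R 4.3.3, Python 3.11.15, numpy 2.4.6, scipy 1.17.1, pandas 2.3.3 and matplotlib 3.10.9 were used, and the intervals were tested on simulated data.

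The genes, the lists and the comparisons were chosen with earlier results of these data known. Named genes are the 10 members, the highest and lowest gene of each list among those with at least 200 UMIs, and the genes with the highest correlation to a member. Tuba4a, Tubb4b and Flna were named as isotypes of the same families, after their values were seen. Proteins were not analysed here.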

Additional observations from a re-analysis of the deposited data

How the results depend on the processing

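No paired analysis was possible because each genotype had 1 section, and no library could be left out. Over the alternatives to the main setting, 8 or 9 of the 10 genes were higher in the transgenic section and 7 or 8 were at least 2-fold higher. Nes was the only gene of the 10 to change direction, with a log2 ratio of -0.18 in the 50% of spots richest in cardiomyocyte markers. The median log2 ratio of the 10 genes, 1.37, was 1.21 with TMM factors and 1.28 without the 50 most abundant genes in the totals. It was 1.22 with DESeq2 size factors, which were estimated at 1 for both sections, so that setting compared raw counts. Against library totals it shifted every log2 ratio by -0.15, where TMM factors shifted it by -0.16. Each of these scalings shifts every gene alike. The share of Tuba1a in the α-tubulins differed by 67.0 percentage points between the sections, and by 68.8 in the spots poorest in erythroid UMIs. In the spots richest in cardiomyocyte markers the Tubb2b difference went from 11.6 to 13.1 percentage points and the Vim difference in the sum of Des and Vim from 2.30 to 0.94. The median r of the 15 pairs in the transgenic section, 0.454, was 0.394 in interior spots and 0.210 as Spearman's rho. It was 0.154 in the spots poorest in erythroid UMIs and 0.145 without spots of at least 10% of them, with 12 of 15 pairs above the control in both. Pairs of other genes were not compared in this way. The number of genes found in a larger share of transgenic spots, 8, was also 8 after thinning and 10 without the erythroid-rich spots, where 76.4%, 64.2% and 80.5% of all genes were. Synm, with 180 UMIs over both sections, was limited by depth.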
